A study of Mus musculus with 36 samples.

Results

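Prol1, Spt1, Car6, Pip, Oit1, Mucl1, Smr2 and 2310057J18Rik are 8 genes for products of the secretory end piece of the mouse submandibular gland, the acinus. They were taken by name, as 8 of the 30403 genes with at least 1 unique molecular identifier (UMI, a tag that counts each captured transcript once) in a retained cell, and all 8 were found among the 31102 gene names of the tables. Each was followed in 26 glands profiled by Drop-seq, in which single cells are caught in droplets with barcoded beads, in 4 glands profiled by CITE-seq, which reads RNA and antibody tags from the same cells, and in 2 bulk RNA libraries of whole glands. Drop-seq covered 6 control and 7 double-mutant mice at postnatal day 40 (P40) and the same numbers at P90, and males and females were present in every group. The CITE-seq glands were 2 control (1 labelled male, 1 labelled female) and 2 double-mutant (both labelled female) glands at P70, and the bulk libraries were 1 female control at P70 and 1 female double mutant at P100. All mice had a C57BL/6 background and carried K14-Cre, a recombinase driven by the keratin 14 promoter of basal epithelial cells, and the R26-EYFP reporter that Cre switches on. Double-mutant mice also had the β-catenin gain-of-function allele (β-catGOF) and the Bmpr1a loss-of-function allele (Bmpr1aLOF), so that both changes arose in K14-Cre cells and their progeny. The labels call the controls wildtype or control. Bulk RNA came from undissociated tissue. Drop-seq cells had been dissociated with enzymes, sorted and kept in methanol, whereas CITE-seq cells were used fresh and held a small spike-in of human HEK cells.

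Acinar cells take up water and ions from the blood side, package proteins in granules and release both into the lumen on nervous stimulation, and ducts then modify the fluid. In the rodent submandibular gland mucin-like and other abundant small proteins make up much of the acinar product. Prol1 encodes a submandibular mucin, and Spt1 and Mucl1 are mucin-like neighbours, of which RefSeq names Spt1 as Mucl2 and lists Mucl1 as a transcribed pseudogene. Car6 encodes the secreted carbonic anhydrase of saliva, Pip encodes prolactin-induced protein, a small secreted glycoprotein, and Oit1 is the mouse Fam3d gene of a secreted cytokine-like family. Smr2 is a submaxillary gland androgen-regulated protein gene, and 2310057J18Rik is known by its clone name, with Leg1 as a RefSeq synonym.

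The promoters of Spt1, Prol1, Pip and 2310057J18Rik are shown because much of the text below describes the levels and ratios of these 4 members. Of the 4, 2310057J18Rik alone passed a Drop-seq test described below, for sex in control glands. As annotated for the bulk counts (GENCODE vM7 on mm10), Prol1 lies at chr5:88317312-88328814, Spt1 at chr15:103895859-103899309, Pip at chr6:41847535-41852065 and 2310057J18Rik at chr10:28972288-28986303. Car6 lies on chromosome 4, Oit1 on chromosome 14, Mucl1 on chromosome 15 and Smr2 on chromosome 5. Smr2 and Prol1 are 208258 bases apart, and Mucl1 and Spt1 are 140419 bases apart. RefSeq promoters (GRCm38.p6) were matched for 7 of the 8 members, all but Mucl1. Each line below gives the 250 bases before the annotated start, 5′ to 3′ on the gene's strand, and capitals mark a match on either strand to AGAACA (an androgen receptor half-site), CANNTG (the E-box) or TATAAA (the TATA box).
Spt1, chr15:103899313-103899562 (- strand): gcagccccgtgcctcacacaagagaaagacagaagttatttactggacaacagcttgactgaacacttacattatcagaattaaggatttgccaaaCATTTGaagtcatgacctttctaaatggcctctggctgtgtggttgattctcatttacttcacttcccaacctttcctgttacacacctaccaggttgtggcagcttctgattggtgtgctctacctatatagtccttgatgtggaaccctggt
Prol1, chr5:88317062-88317311 (+ strand): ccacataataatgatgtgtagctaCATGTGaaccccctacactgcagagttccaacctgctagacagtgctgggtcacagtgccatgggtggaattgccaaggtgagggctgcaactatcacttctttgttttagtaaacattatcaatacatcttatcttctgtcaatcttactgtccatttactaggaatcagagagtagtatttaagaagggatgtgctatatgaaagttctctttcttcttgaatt
Pip, chr6:41847299-41847548 (+ strand): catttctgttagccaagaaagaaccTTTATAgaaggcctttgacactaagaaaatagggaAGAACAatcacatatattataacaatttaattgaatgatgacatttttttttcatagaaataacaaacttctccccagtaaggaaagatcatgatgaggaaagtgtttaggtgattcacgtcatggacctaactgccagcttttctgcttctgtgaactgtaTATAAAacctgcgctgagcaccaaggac
2310057J18Rik, chr10:28986307-28986556 (- strand): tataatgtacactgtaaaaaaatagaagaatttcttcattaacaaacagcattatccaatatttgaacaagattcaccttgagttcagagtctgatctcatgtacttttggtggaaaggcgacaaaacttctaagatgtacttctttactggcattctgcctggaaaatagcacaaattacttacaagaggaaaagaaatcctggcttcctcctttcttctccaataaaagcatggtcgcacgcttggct
An E-box stood in 5 of the 7 promoters searched and in 66.2% of 32851 RefSeq promoters of the same length. AGAACA stood in 1 of the 7, that of Pip, at 190 bases before the start, and in 16.1% of all promoters. TATAAA also stood in Pip alone of the 7, at 28 and 225 bases before the start, and in 12.4% of all promoters. No match was found in the window of 2310057J18Rik. A match is a run of letters and was not tested for binding.

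Of 26987 Drop-seq barcodes 23346 were retained, and their UMIs per gland ran from 650301 to 6994504. Cells were clustered without the 8 members, and 9 clusters with at least 3 acinar markers each (among them Aqp5, Bhlha15, Kcnn4 and Lpo) held 6580 acinar-like cells, between 59 and 638 per gland. The name marks a match to markers, not the authors' cluster. Another 3 clusters (783, 675 and 117 cells) matched no marker list and stayed out of the acinar-like sums, although the 8 genes held 48.5%, 44.8% and 51.5% of their UMIs, and 33.2% of the cells of the first came from double-mutant P90 replicate 1. CITE-seq gave 2535 retained cells, of which 867 were acinar-like. In all, 29 barcodes occurred in more than 1 library. The sex genes of 2 Drop-seq libraries went against their labels, namely double-mutant P40 replicate 1 (labelled male) and double-mutant P90 replicate 5 (labelled female), so the comparisons by sex in double-mutant glands are given with and without them. Both carry the batch number 11 in their titles. Whether they were exchanged, which would also exchange their stages, was not tested, and the main fits use them as labelled. Both CITE-seq control libraries held UMIs of Xist (151 and 165) and of Y-linked genes (60 and 71), and the double-mutant libraries held 193 and 154 of Xist beside 16 and 14 Y-linked UMIs. Whether the CITE-seq libraries hold cells of more than 1 animal was not tested. Sex was not compared there, and the spread behind the CITE-seq p-values may be that of mixed libraries. The 3′ UMI tags do not read the altered exons, and whole-gland Bmpr1a (log2 fold change -0.19, edgeR adjusted p = 0.224) and Ctnnb1 (0.35, edgeR adjusted p = 0.166) did not check the genotype labels.

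The first question was what acinar-like cells devoted to these genes. In control glands the 8 genes together held 59.7% ± 2.31 (SD, n = 12) of all UMIs of acinar-like cells, with a lowest gland at 55.7% and a highest at 63.0%. Spt1 was by far the most abundant of them, at 3978 ± 263 UMIs per 10000 UMIs, followed by Prol1 at 749 ± 141, Car6 at 742 ± 91.2 and Pip at 398 ± 109 (SD, n = 12). Prol1 and Car6 did not differ beyond their spread. The other 4 members were far lower: 2310057J18Rik reached 81.2 ± 89.9, Mucl1 24.2 ± 22.7 and Oit1 1.75 ± 0.375 UMIs per 10000, and Smr2 0.165. Per-UMI values count 3′ tags, so transcript length does not enter them, although capture can differ between transcripts. Single cells pooled over the Drop-seq glands looked much like the sums. The median acinar-like cell gave 61.0% of its UMIs to the 8 genes (10th to 90th percentile 36.5% to 71.6%), Spt1 was the highest member in 6403 of 6580 cells (97.3%), and Pip was the highest in 131 (1.99%). Glands differed, however. The 10th percentile ran from 1.09% to 8.77% in double-mutant P90 replicates 2 to 6 and double-mutant P40 replicates 1, 2, 5 and 7. It ran from 2.53% to 3.82% in control P90 replicates 1, 2 and 6, and from 25.8% to 57.3% in the other glands. The median cell of double-mutant P90 replicate 5 gave 24.2%. Among the 9 acinar-like clusters Spt1 ran from 3372 to 4661 UMIs per 10000 and Pip from 371 to 527, so no cluster lacked a main product.

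**Figure D1:**
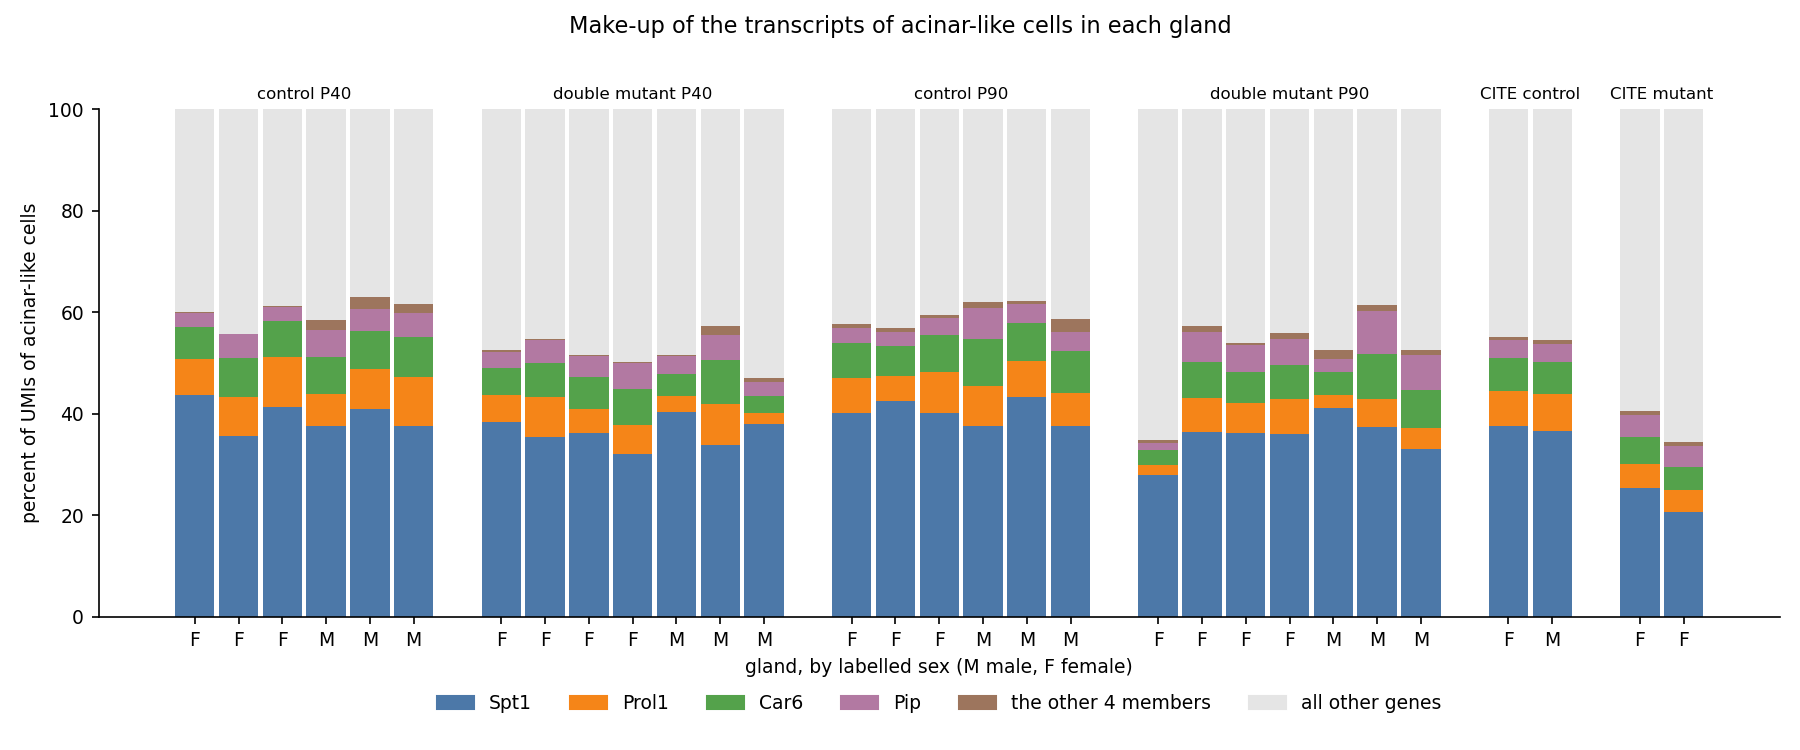
Percent of the UMIs of acinar-like cells that came from Spt1, Prol1, Car6, Pip, the other 4 members and all other genes, as 1 stacked bar per gland from 0 to 100%. Spt1 is the largest member in every bar, and the shortest member stack of the Drop-seq glands is double-mutant P90 replicate 5, at 34.9%.

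Acinar-like cells of double-mutant glands gave the 8 genes a somewhat smaller part of their UMIs, at 52.4% ± 6.15 (SD, n = 14), with 34.9% in the lowest gland, a median of 52.5% and 61.4% in the highest. The genotypes overlapped, since the control minimum of 55.7% lay below the double-mutant maximum. How far acinar-like cells with few transcripts of the 8 genes lowered the double-mutant values was not tested. As UMIs per cell, a control acinar-like cell held 1641 to 4765 UMIs of the 8 genes on average per gland (median 2923), and a double-mutant cell 393 to 5114 (median 1818). These counts also follow library depth: the gland at 393 had 691944 UMIs in all and that at 5114 had 6512411. Transcripts of the 8 genes were also counted in cells that should lack them. In non-epithelial cells (endothelial-, fibroblast-, pericyte-, immune- and lymphocyte-like classes), the 8 genes made up 6.53% to 53.3% of UMIs in control glands (median 26.1%) and 0.912% to 32.7% in double-mutant glands (median 9.03%). After the non-epithelial level of the same gland was subtracted, the 8 genes held 32.1% in control and 41.8% in double-mutant acinar-like cells, so the order of the genotypes depended on this step. That level rested on 17 to 204 non-epithelial cells per control gland and 114 to 585 per double-mutant gland. In control P40 replicate 5 it was the 53.3% of 28 cells, which left 8.35%. Whether it measures free RNA alone was not tested.

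Within the product of acinar-like cells, Pip held a larger and Prol1 a smaller mean share in double-mutant than in control glands, while the mean shares of Spt1 and Car6 were close. Prol1 was 12.5% ± 2.15 of the UMIs of the 8 genes in control glands (SD, n = 12) and 9.43% ± 3.28 in double-mutant glands (SD, n = 14). Pip was 6.66% ± 1.80 and 8.48% ± 2.86 in the same groups. Shares of Spt1 (66.6% ± 4.41 and 69.0% ± 7.60) and of Car6 (12.4% ± 1.41 and 11.5% ± 2.49) differed by less than either SD. The differences of Prol1 and Pip were also smaller than their double-mutant SDs, though not than their control SDs. Pip had 0.282 to 0.847 UMIs for each Prol1 UMI in control glands (median 0.534) and 0.567 to 1.58 in double-mutant glands (median 0.901), so the ranges overlapped in part. For each Car6 UMI Pip had a median of 0.496 in control and 0.727 in double-mutant glands, and Prol1 a median of 1.02 and 0.773. Shares and ratios within a sum are described here without a test.

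In the CITE-seq glands the groups lay apart for the same ratio. Pip had 0.496 and 0.514 UMIs for each Prol1 UMI in the control glands and 0.874 and 0.959 in the double-mutant glands. Pip held 6.57% and 6.58% of the 8 genes in control and 10.4% and 11.9% in double-mutant acinar-like cells, whereas Spt1 held 67.1% and 68.0% against 62.5% and 60.0%. The ratio of Prol1 to Spt1 did not separate the genotypes (0.188 and 0.197 in control, 0.191 and 0.207 in double-mutant glands). Here the smaller part was thus Spt1 as well as Prol1, unlike in the Drop-seq glands. The 8 genes together held 54.5% and 55.1% of acinar-like UMIs in control and 34.4% and 40.5% in double-mutant glands, beside 3.66% and 4.95% against 0.879% and 0.884% in non-epithelial cells.

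**Figure D2:**
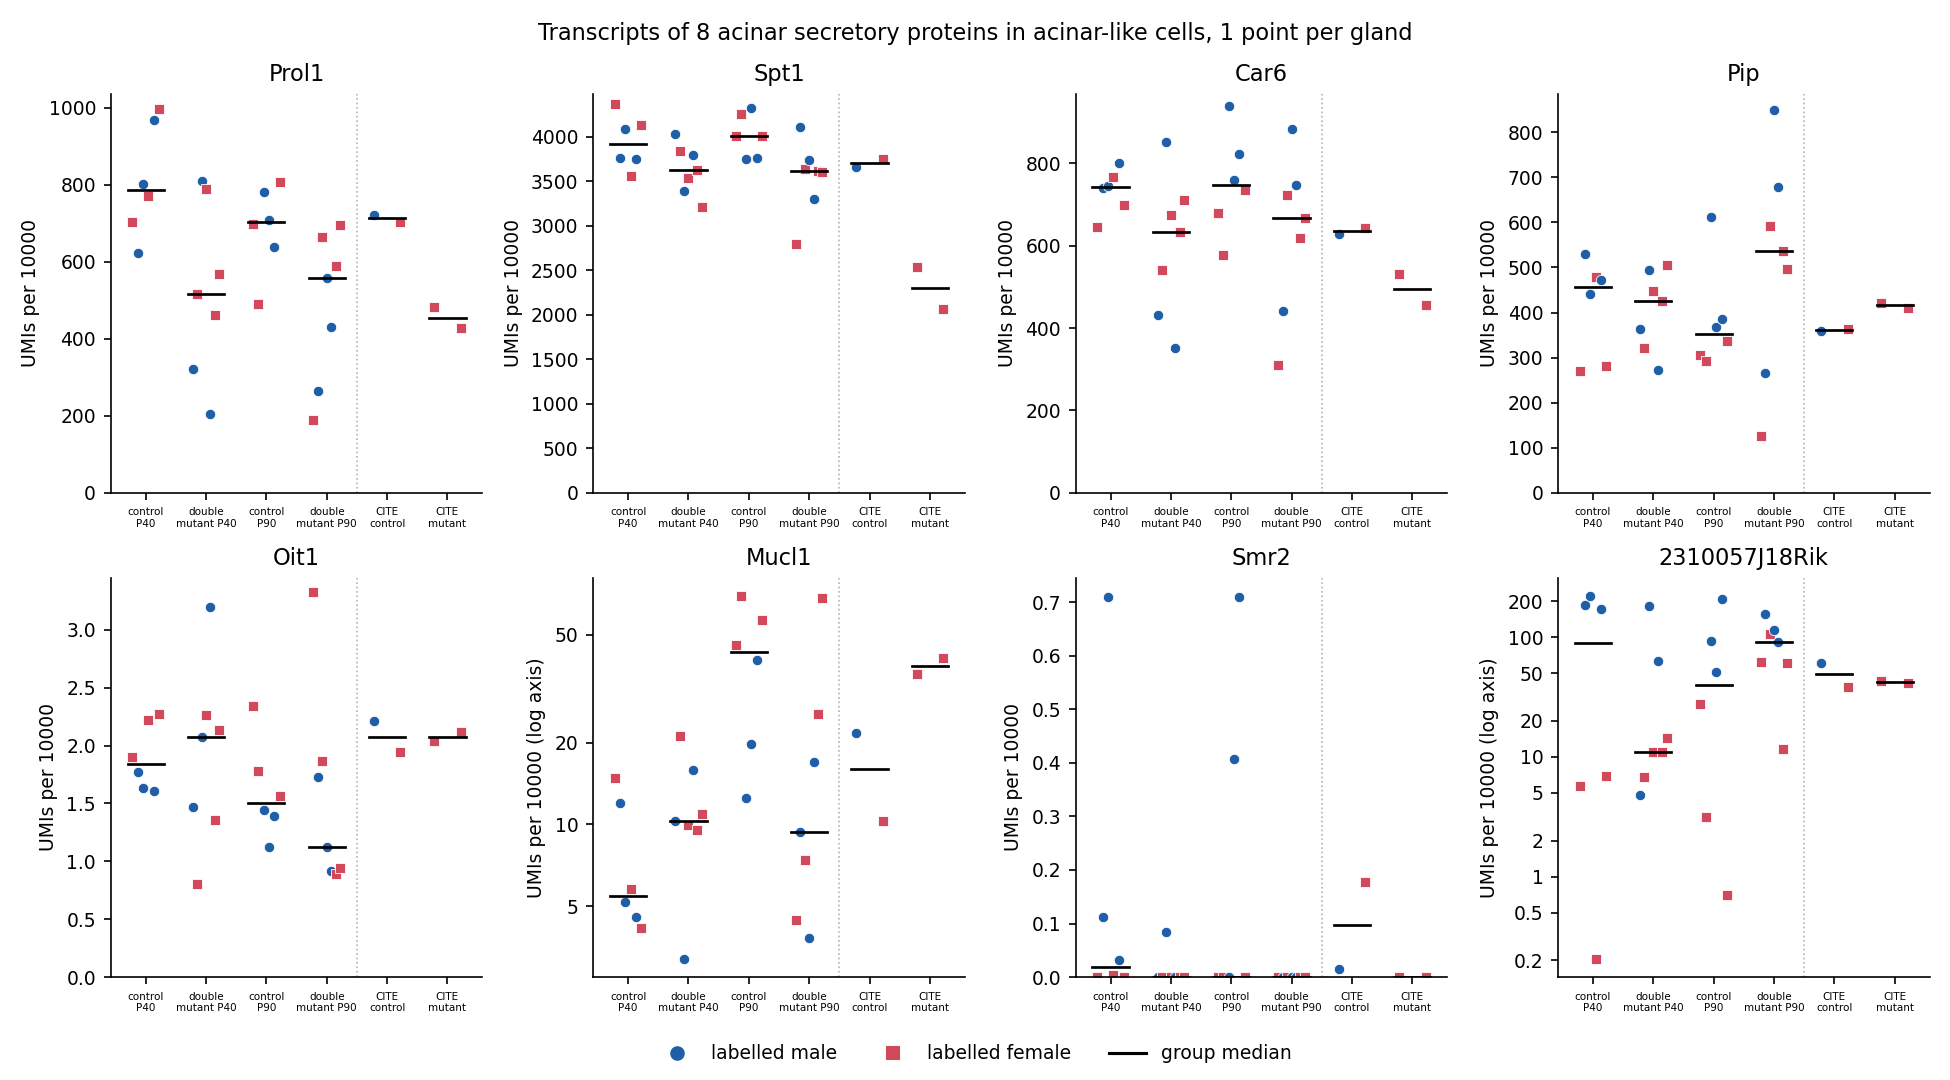
UMIs per 10000 UMIs of each member in acinar-like cells, 1 point per gland, by genotype and stage for the 26 Drop-seq glands and, right of the dotted line, by genotype for the 4 CITE-seq glands at P70, with group medians as lines and labelled sex as colour. Axes start at 0 except those of Mucl1 and 2310057J18Rik, which are logarithmic, and the 2310057J18Rik points of control males (51.5 to 221) all lie above those of control females (0.206 to 27.7).

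Whether double mutation changed each gene was tested on sums per gland with edgeR's quasi-likelihood test and Benjamini-Hochberg adjustment over all genes (sex and stage as covariates over all Drop-seq glands, none in CITE-seq). At the level of the whole gland 2 of 7 tested members fell (Mucl1 and Oit1), 0 rose, and the share of all 10488 genes that passed was 22% (7.56% called lower). Mucl1, the mucin-like pseudogene, had a lowest value of 2.61, a median of 8.69 and a highest of 44.8 UMIs per 10000 in control glands and 0.910, 5.61 and 30.02 in double-mutant glands. The ranges overlapped widely. Its log2 fold change was -1.32 ± 0.38 (SE, edgeR adjusted p = 0.0174). Oit1, the Fam3d gene, ran from 0.779 to 1.61 UMIs per 10000 in control glands (median 1.11) and from 0.276 to 1.499 in double-mutant glands (median 0.868), with a log2 fold change of -0.85 ± 0.31 (SE, edgeR adjusted p = 0.0478). With the batch number of the titles as a term both calls were lost (edgeR adjusted p = 0.443 for Mucl1 and 0.24 for Oit1), and the Oit1 call was also lost when any 1 of 19 of the 26 glands was left out. In the 5 batches with both genotypes, whole-gland Mucl1 was lower in double-mutant glands in 3 and higher in 2. Mucl1 transcripts share a run of 50 bases with those of Spt1, the most abundant member. Whether Spt1 reads entered the Mucl1 counts, here and below, was not tested.

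The main products did not pass in the whole gland, although the double-mutant batch means of Prol1, Spt1 and Car6 lay below the control means in 5 of 5 batches. Prol1 ran from 316 to 866 UMIs per 10000 in control glands (median 490) and from 54.1 to 598 in double-mutant glands (median 290), with a log2 fold change of -1.20 ± 0.47 (SE, edgeR adjusted p = 0.0629) and log2 ratios of batch means from -1.17 to -0.55. Single glands overlapped within batch 13, where 1 double-mutant gland was at 558 and the control at 492. Spt1 ran from 2094 to 3391 (median 2731) and from 775 to 3091 (median 1878), with a log2 fold change of -0.94 ± 0.42 (SE, edgeR adjusted p = 0.104). The salivary carbonic anhydrase gene Car6 ran from 373 to 716 (median 463) and from 85.6 to 663 (median 335), with -0.84 ± 0.44 (SE, edgeR adjusted p = 0.163). All 3 ranges overlapped. Pip showed the smallest of these differences, with medians of 265 and 298 UMIs per 10000 and a log2 fold change of -0.22 ± 0.44 (SE, edgeR adjusted p = 0.749). Its direction depended on the scale, since per 10000 UMIs the double-mutant batch mean was higher in 4 of 5 batches. For 2310057J18Rik the log2 fold change was 0.31 ± 0.94 (SE, edgeR adjusted p = 0.839), whereas its mean per 10000 UMIs was 56.2 in control and 38.4 in double-mutant glands and its batch mean was lower in 5 of 5 batches (log2 ratios -2.77 to -0.12). The median log2 fold change was -0.85 over the 7 members and 0.02 over all genes. Acinar-like cells made up 21.4% to 67.2% of retained cells in control glands (median 33.1%) and 7.28% to 48.7% in double-mutant glands (median 18.1%), and in whole-gland sums fewer acinar cells and less RNA per cell cannot be told apart.

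Within acinar-like cells 0 of 7 tested members passed edgeR's quasi-likelihood test for genotype, against 1.79% of 3807 genes. At an unadjusted threshold 1 member, Prol1, and 555 genes in all were below 0.05, and DESeq2 called 227 genes. Prol1 ran from 490 to 997 UMIs per 10000 in control glands (median 740) and from 190 to 809 in double-mutant glands (median 538), with a log2 fold change of -0.65 ± 0.24 (SE, edgeR adjusted p = 0.191). Its double-mutant mean lay below the control mean of the same batch in 5 of 5 batches, by log2 ratios of -0.85 to -0.05, although single glands overlapped within batch 9 (697 in the double mutant, 639 and 808 in the controls). The batch means of Spt1 (-0.24 ± 0.15, edgeR adjusted p = 0.506) and Car6 (-0.32 ± 0.20, edgeR adjusted p = 0.506) were also lower in 5 of 5. Pip had a log2 fold change of 0.18 ± 0.25 (SE, edgeR adjusted p = 0.813) and a higher batch mean in 3 of 5. Oit1 (-0.18 ± 0.16), Mucl1 (-0.43 ± 0.39) and 2310057J18Rik (0.65 ± 0.69) had edgeR adjusted p of 0.692, 0.686 and 0.74. Batch means went against the sign of these 3 values in most batches, since double-mutant means were higher in 3 of 5 batches for Oit1 and 4 of 5 for Mucl1, and lower in 5 of 5 for 2310057J18Rik.

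In the 4 CITE-seq glands most members were lower in the double mutants, with log2 fold changes that exceeded those of the Drop-seq glands in size, a difference that was not tested. In whole-gland sums 6 of 7 tested members fell, against 13.7% of 10058 genes called in either direction and 4.47% called lower. Spt1 was at 2719 and 2812 UMIs per 10000 in the control glands and at 1086 and 674 in the double-mutant glands, with a log2 fold change of -2.35 ± 0.54 (SE, edgeR adjusted p = 0.0294). Prol1 was at 533 and 525 against 205 and 135 (-2.34 ± 0.44, edgeR adjusted p = 0.0183), and Car6 at 462 and 477 against 224 and 142 (-2.06 ± 0.44, edgeR adjusted p = 0.0236). These groups did not overlap, although the falls were smaller per 10000 UMIs than against edgeR's normalised library size. Pip fell (-1.47 ± 0.39, edgeR adjusted p = 0.0418) from 264 and 268 to 180 and 131 UMIs per 10000, and its call, like that of Oit1 (-1.71 ± 0.28, edgeR adjusted p = 0.0126), was lost without double-mutant replicate 2 (edgeR adjusted p = 0.122 and 0.0708). For 2310057J18Rik (-1.71 ± 0.33, edgeR adjusted p = 0.0191) the call was lost without either double-mutant gland. Mucl1 did not pass (-0.47 ± 0.37, edgeR adjusted p = 0.416), and its direction depended on the scale, at 15.9 and 7.60 UMIs per 10000 in control and 14.9 and 12.6 in double-mutant glands. Acinar-like cells were 42.6% and 49.6% of retained cells in control and 17.3% and 21.0% in double-mutant glands.

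In sums over CITE-seq acinar-like cells 3 of 7 tested members fell, all of them main products, against 9.62% of 4084 genes called in either direction and 2.6% called lower. The 10th-percentile acinar-like cell gave the 8 genes 43.9% and 46.5% of its UMIs in control glands. In double-mutant glands it gave 0.965% and 1.003%, near the 0.884% and 0.879% of their non-epithelial cells. The median cell gave 55.6% in both control glands and 38.4% and 29.2% in the double-mutant glands. How far acinar-like cells with few transcripts of the 8 genes lowered the double-mutant sums was not tested. Spt1 was at 3661 and 3748 UMIs per 10000 in control and 2533 and 2066 in double-mutant cells (log2 fold change -1.25 ± 0.21, edgeR adjusted p = 0.00587). Prol1 was at 722 and 705 against 483 and 427 (-1.21 ± 0.20, edgeR adjusted p = 0.00499), and Car6 at 628 and 643 against 531 and 456 (-0.93 ± 0.20, edgeR adjusted p = 0.0192), although the Car6 call was lost without either control gland. The 3 falls were smaller per 10000 UMIs than against edgeR's normalised library size, which gave 2.38-, 2.32- and 1.90-fold for Spt1, Prol1 and Car6. For Pip even the direction depended on the scale. Per 10000 UMIs Pip was higher in the double-mutant cells (422 and 409) than in the control cells (358 and 362). Against edgeR's normalised library size it was lower (-0.36 ± 0.19, edgeR adjusted p = 0.256), where the median of all genes was -0.04. Mucl1 was at 21.8 and 10.3 in control and 35.9 and 40.9 in double-mutant cells, with a log2 fold change of 0.69 ± 0.29 that did not pass (edgeR adjusted p = 0.177). Oit1 (-0.56 ± 0.21, edgeR adjusted p = 0.132) and 2310057J18Rik (-0.79 ± 0.23, edgeR adjusted p = 0.0631) did not pass either. Per 10000 UMIs Oit1 was at 2.21 and 1.94 in control and 2.04 and 2.11 in double-mutant cells, so its lower value arose with edgeR's normalised library size.

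**Figure D3:**
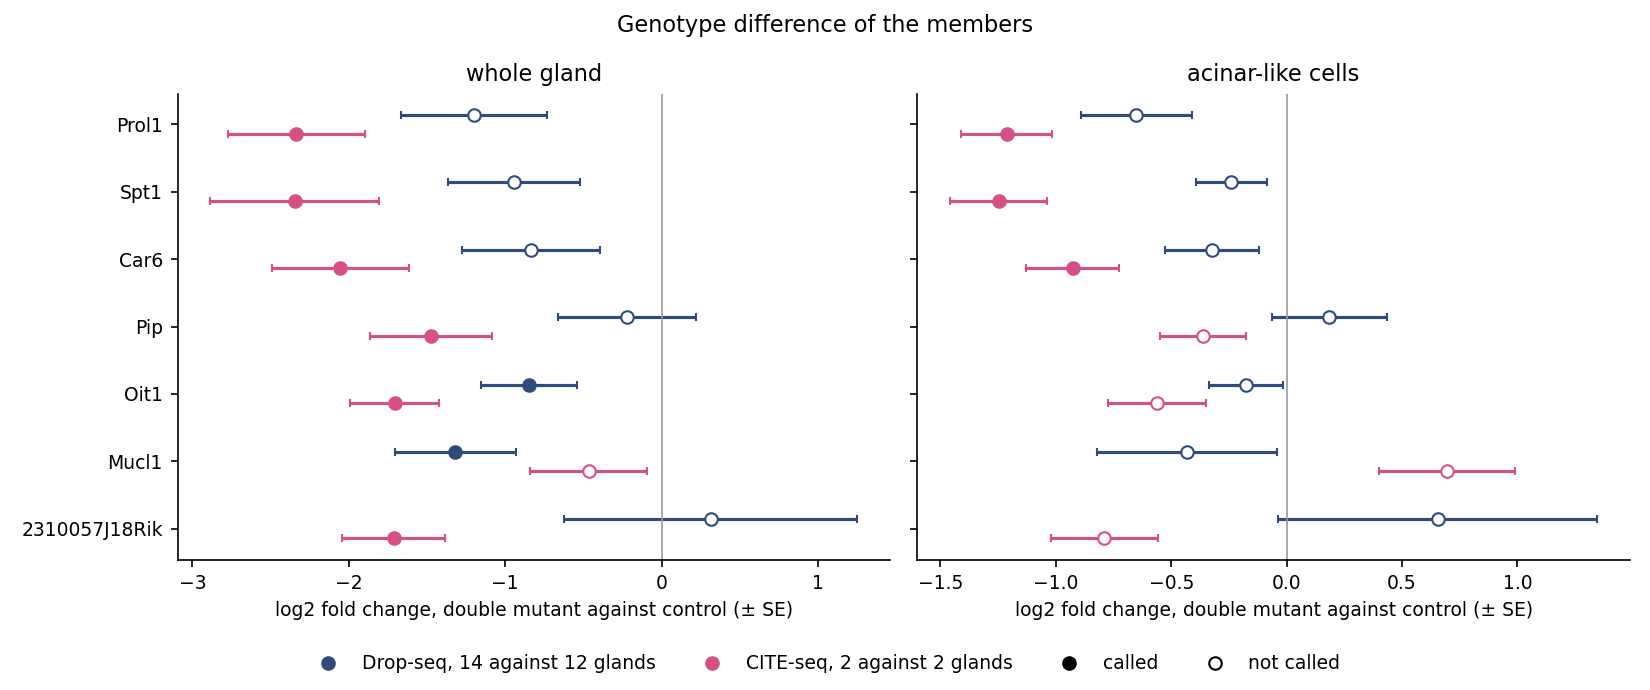
Log2 fold change of each member between double-mutant and control glands, with its standard error as a bar, in whole-gland sums and in acinar-like cells, for the 26 Drop-seq and the 4 CITE-seq glands; filled points passed an edgeR adjusted p of 0.05. In whole-gland sums the CITE-seq points of Spt1, Prol1 and Car6 lie at -2.35, -2.34 and -2.06 and the Drop-seq points at -0.94, -1.20 and -0.84.

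Genotype was next taken at each stage. At P40 0 of 8 members passed in whole-gland sums, with 1.36% of 11420 genes called, 2422 genes and 3 members (Prol1, Oit1 and Smr2) below an unadjusted 0.05, and 640 genes called by DESeq2. Prol1 had the largest difference of the main products there (-1.54 ± 0.66, edgeR adjusted p = 0.183). At P90 2 of 8 members fell, Mucl1 and Smr2, with 8.07% of genes called and 2.64% called lower. Smr2 entered this fit only through the few glands that held its UMIs, as described below. Mucl1 was at 7.04 to 44.8 UMIs per 10000 in control glands at P90 (median 30.6) and at 0.910 to 30.02 in double-mutant glands (median 6.08), with a log2 fold change of -2.01 ± 0.51 (SE, edgeR adjusted p = 0.0171). This call held without each gland in turn, but in the 2 batches with both genotypes at P90 (8 and 9) the whole-gland log2 ratio was -0.01 and -0.04. The test of the difference between the stages called 0 of 8 members (0.00876% of genes), with 628 genes below an unadjusted 0.05 and 9 called by DESeq2. In acinar-like cells 0 of 7 members passed at P40 (0.362% of 4417 genes) and 0 of 7 at P90 (2.13%), where 330 and 682 genes were below an unadjusted 0.05 and DESeq2 called 56 and 226.

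Mucl1 was the one member called between the stages. In control acinar-like cells it was at 4.16 to 14.9 UMIs per 10000 at P40 (median 5.47) and at 12.5 to 69.4 at P90 (median 43.0), and the lowest P90 gland lay within the P40 range. Its log2 fold change was 1.95 ± 0.53 (SE, edgeR adjusted p = 0.0148), 1 of 7 members called against 8.2% of genes (7.56% higher), and this held without each control gland in turn. In whole-gland sums the change was 1.92 ± 0.53 (SE, edgeR adjusted p = 0.0346), 1 of 8 members against 5.04% of genes (4.48% higher), and was lost when any 1 of 9 glands was left out. All control glands at P40 came from batches 12 to 14 and all at P90 from batches 7 to 9, so stage and batch cannot be told apart in controls. With the batch as a term, which then rests on the double-mutant glands, the change was -0.70 in acinar-like cells and -0.11 in whole glands. In the 3 batches with double-mutant glands of both stages, Mucl1 was lower at P90 in each (log2 ratios -1.38, -0.07 and -0.78). The -1.38 is that of batch 11, which holds both libraries whose sex genes went against their labels, 1 of them its only P90 gland. In double-mutant glands 0 of 8 members passed between stages in whole-gland sums, where 0% of genes passed, 1122 genes were below an unadjusted 0.05 and DESeq2 called 27. In acinar-like cells 0 of 7 passed (0.0453% of genes, 426 below an unadjusted 0.05 and 12 by DESeq2).

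Of the 7 members tested in acinar-like cells, 2310057J18Rik had the largest log2 fold change between the sexes of control glands. In control males its level in acinar-like cells was 187, 221 and 172 UMIs per 10000 at P40 and 92.2, 51.5 and 207 at P90. In control females it was 5.75, 0.206 and 6.94 at P40 and 27.7, 3.14 and 0.71 at P90. The lowest male lay above the highest female. The log2 fold change of males over females was 4.85 ± 0.87 (SE, edgeR adjusted p = 0.000735), 1 of 7 tested members called against 1.58% of genes (1.02% higher). It was called in each alternative run, and stayed between 4.58 and 5.49 when each control gland was left out. Within the 3 batches with control glands of both sexes the log2 ratio was 8.19, 5.02 and 5.59. In whole glands 2 of 8 members were called for sex in controls, 2310057J18Rik and Smr2, against 0.56% of genes (0.42% higher). Of these, Smr2 entered the fit only through the few glands that held its UMIs, as described below. Control males were at 30.3 to 160 and control females at 0.18 to 18.5 UMIs per 10000 of 2310057J18Rik there, and the change of 5.20 ± 1.15 (SE, edgeR adjusted p = 0.0275) was lost when any 1 of 7 of the 12 control glands was left out (highest adjusted p 0.083).

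In double-mutant glands the sexes overlapped for 2310057J18Rik. Acinar-like cells of glands labelled male were at 4.79, 181 and 62.7 UMIs per 10000 at P40 and 155, 114 and 91.2 at P90, and those of glands labelled female at 6.85, 11.02, 10.9 and 14.3 at P40 and 62.6, 107, 11.7 and 60.9 at P90. The 4.79 of the P40 males and the 62.6 of the P90 females belong to the 2 libraries whose sex genes went against their labels. The log2 fold change was 1.77 ± 0.70 (SE, unadjusted p = 0.0173 by edgeR, adjusted p = 1), and 1.962 without those 2 libraries (edgeR adjusted p = 0.427). For sex in double-mutant acinar-like cells edgeR called 0% of genes, 184 were below an unadjusted 0.05 and DESeq2 called 1. In whole glands edgeR likewise called 0% of genes (414 below an unadjusted 0.05, 6 by DESeq2), with 1.41 ± 0.94 for 2310057J18Rik and 1.506 without the 2 libraries (edgeR adjusted p = 0.688). The difference between the sex effects of the genotypes was -3.79 ± 1.37 in whole glands (SE, unadjusted p = 0.0103 by edgeR, adjusted p = 1), where 0% of genes passed, 398 were below an unadjusted 0.05 and DESeq2 called 1. Without the 2 libraries it was -3.69 (edgeR adjusted p = 0.901). With the genotypes compared inside batches, 2310057J18Rik was lower in double-mutant acinar-like cells in 5 of 5 batches (log2 ratios -2.07 to -0.21), in which the sexes were not balanced.

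Smr2, the androgen-regulated submaxillary gene, was rare and came from few cells. Only 827 of its UMIs were counted in retained Drop-seq cells, and 11 of the 30 single-cell libraries list the gene. Control P40 replicate 3, a male, held 569 of them (68.8%), of which 301 were in 1 luminal Dcpp1+-like cell and 265 in 16 of 518 acinar-like cells. Control P90 replicate 5, a male, held 155 (18.7%), of which 125 were in 13 of 308 acinar-like cells. Control males together held 787 Smr2 UMIs of 22985262 and control females 4 of 16785101. The sex difference in control glands passed (edgeR adjusted p = 0.0117) and was lost without control P40 replicate 3 (edgeR adjusted p = 0.0774). Smr2 reached the count filter of the sex and stage fits only through the few, mainly male, glands that held it. Its sex call and its P90 genotype call below thus restate where these UMIs lay and are no separate support. Double-mutant glands held 36 UMIs, all in 1 P40 male, and those at P90 held none. Control glands at P90 held 180, of which 155 were in replicate 5 (91 of them in 1 acinar-like cell) and 25 in replicate 4. With UMIs pooled over glands, the control P90 sum was at least 58.8-fold higher at a floor of 3 UMIs over the group. This bound rests on those replicates and does not describe each control gland. The Smr2 call for genotype at P90 (edgeR adjusted p = 0.0232) was lost without double-mutant P90 replicate 1, double-mutant P90 replicate 6 or control P90 replicate 5. In CITE-seq the control glands held 2 and 28 Smr2 UMIs and the double-mutant glands none. Smr2 did not reach the filter in acinar-like cells, in CITE-seq sums or in the genotype fit over all Drop-seq glands.

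No other member passed for sex in control acinar-like cells. In control acinar-like cells Pip was at 367 to 612 UMIs per 10000 in males (median 456) and at 271 to 479 in females (median 300), which overlapped, with a log2 fold change of 0.62 ± 0.37 (SE, edgeR adjusted p = 0.679). Pip was higher in control males within 3 of 3 batches. Spt1 (0.06 ± 0.24), Prol1 (0.14 ± 0.36), Car6 (0.34 ± 0.31), Oit1 (-0.31 ± 0.24) and Mucl1 (-0.74 ± 0.55) had edgeR adjusted p from 0.789 to 0.993.

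The question across cell types was whether any member was made outside the acinus. Free RNA in droplets limits this question. Spt1 stood at 289 to 2977 UMIs per 10000 in endothelial-like cells of control glands (median 1421), and even the thinned share of endothelial-like cells with a Pip UMI was 55.3% at 500 UMIs per cell (median depth 727), beside 98.0% of acinar-like cells (median depth 3554.5). RNA from 1 source keeps its genes in 1 ratio, so each member was set against Spt1 in each cell type and gland, and this ratio was divided by that in the non-epithelial cells of the same gland. Cell types come from clustering of the same cells, and no test was made.

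Pip was high for its Spt1 in 1 ductal and 2 luminal classes. In luminal Dcpp1+-like cells, named for a demilune and parotid protein gene, Pip per Spt1 UMI was above the non-epithelial ratio in 14 of 14 glands, by 1.87- to 21.1-fold (median 3.74-fold). In luminal Clu+-like cells, found only in double-mutant glands at the number needed, it was above in 10 of 10 glands, by 1.08- to 22.4-fold (median 2.86-fold). In ductal Smgc+/Esp4+-like cells it was above in 21 of 26 glands (median 2.09-fold), and double-mutant P40 replicate 2 held 3167 Pip UMIs beside 399 of Spt1 there. The other ductal classes had medians below 1 (0.773 in Klk1+-like, 0.772 in Egf+-like, 0.884 in progenitor-like and 0.918 in Duoxa2+-like cells), as did luminal Muc19+-like cells (0.650). Acinar-like cells themselves were near the non-epithelial ratio (median 1.08-fold, above in 17 of 26 glands). The share of cells with a Pip UMI at 500 UMIs per cell was 80.1% in luminal Dcpp1+-like, 76.5% in ductal Smgc+/Esp4+-like and 60.9% in luminal Clu+-like cells (median depths 4151, 1260 and 798), the last of these not far above the 55.3% of endothelial-like cells. Luminal Dcpp1+-like cells had 34.5 to 58.1 Pip UMIs per 10000 in 5 control glands and 75.2 to 168 in 9 double-mutant glands, which did not overlap. Spt1 was at 111 to 363 and 74.6 to 260 in the same cells. Non-epithelial cells held 23.6 to 500.1 Pip UMIs per 10000 in control glands (median 133) and 5.88 to 249.95 in double-mutant glands (median 89.1), and at 500 UMIs per cell the mean was 3.92 Pip UMIs in luminal Dcpp1+-like and 3.76 in endothelial-like cells, so the excess was relative to Spt1.

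**Figure D4:**
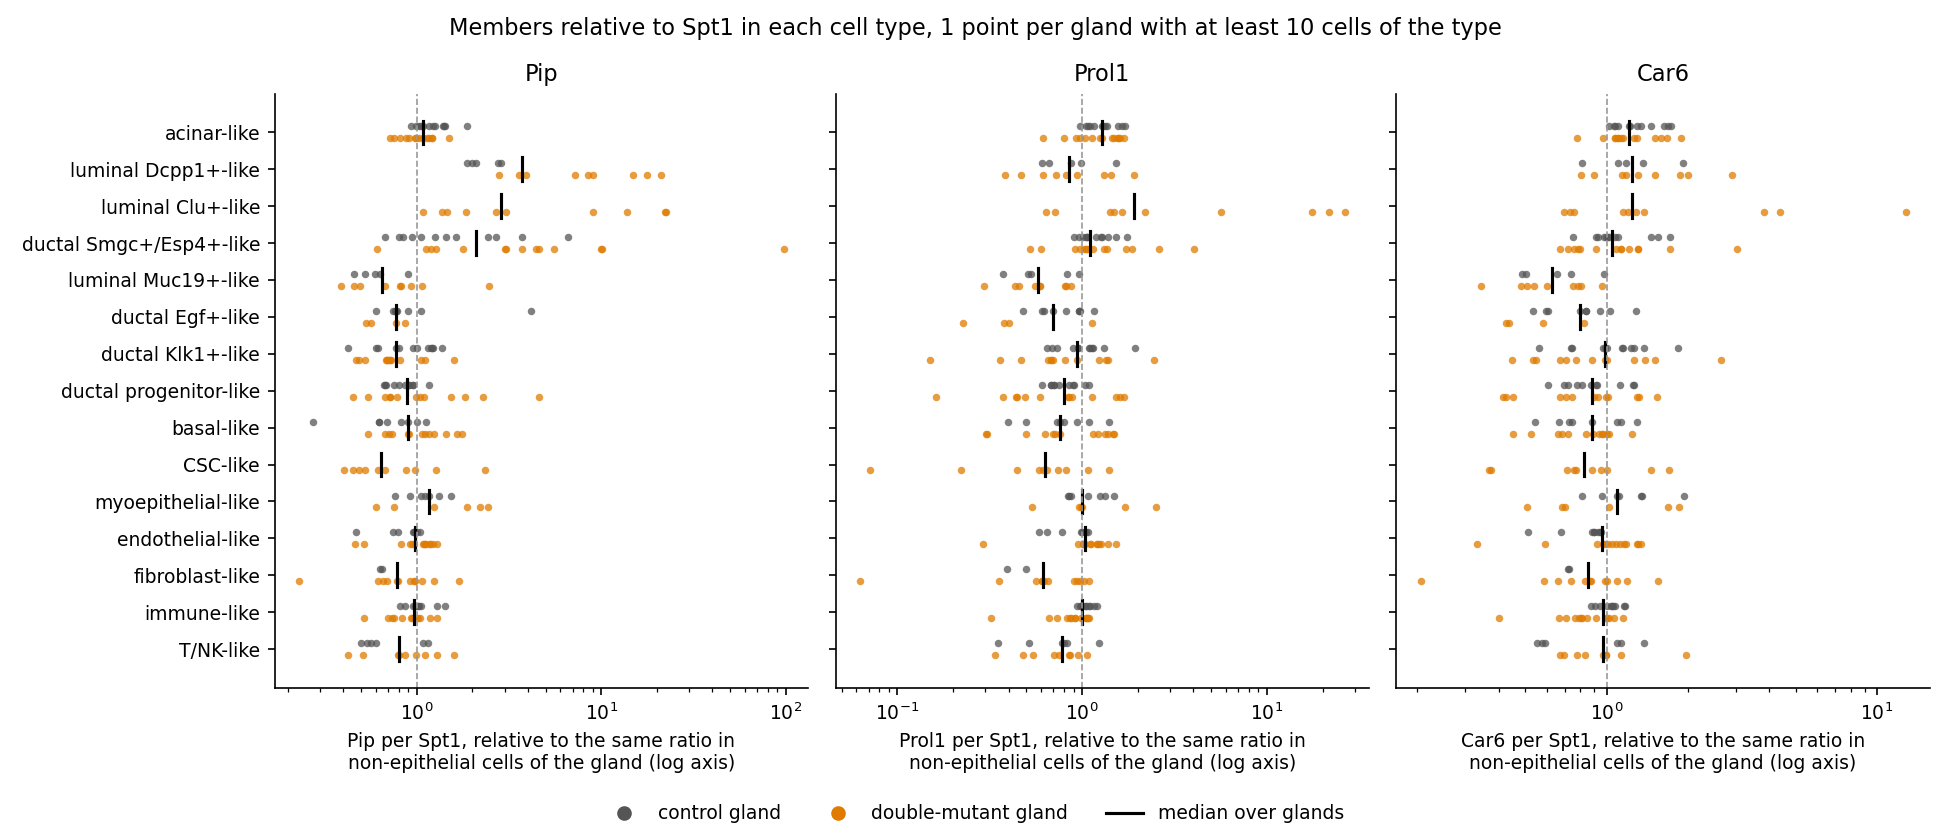
UMIs of Pip, Prol1 and Car6 per Spt1 UMI in each cell type, divided by the same ratio in the non-epithelial cells of the gland (log axis), 1 point per gland with at least 10 cells of the type and the median over glands as a line. Pip lies to the right of the dashed line, which marks a ratio of 1, in all 14 glands with luminal Dcpp1+-like and all 10 with luminal Clu+-like cells, and in luminal Muc19+-like cells Prol1 and Car6 lie to the left of it in all 14 glands.

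Prol1 and 2310057J18Rik were also high for their Spt1 in luminal Clu+-like cells of some double-mutant glands. 2310057J18Rik was above the non-epithelial ratio in 10 of 10 glands, by 1.85- to 57.8-fold (median 3.40-fold), although its thinned share of cells with a UMI, 16.5%, was close to the 16.1% of endothelial-like cells. Prol1 was above in 8 of 10 glands (median 1.91-fold), and 4 of them stood far out, at 21.6-fold in double-mutant P90 replicate 4, 17.4-fold and 26.3-fold in double-mutant P40 replicates 1 and 2 and 5.67-fold in double-mutant P40 replicate 6. The first of these held 3069 Prol1 UMIs beside 757 of Spt1 in these cells, more Prol1 than Spt1, which no acinar-like sum showed. Car6 there was at 0.694- to 12.7-fold (median 1.24-fold). Oit1 was above in 9 of 10 glands (median 8.23-fold), but its UMIs were few. At 500 UMIs per cell 1.55% of luminal Clu+-like cells held 1 or more, beside 1.18% of endothelial-like cells. Mucl1 was above in 5 of 10 glands (median 0.806-fold), and Smr2 had no UMI in luminal Clu+-like cells. In luminal Muc19+-like cells, the mucous class, both Prol1 and Car6 were below the non-epithelial ratio in 14 of 14 glands. The part of doublets and of free RNA in these values was not tested.

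The bulk libraries, 1 per genotype and without a replicate, gave the same rank to Spt1. The 8 genes held 61.8% of 34515744 counts in the control and 56.6% of 34729551 in the double mutant, and per transcript length (TPM) Spt1 ranked first of all genes in both, at 747022 and 693973. Prol1 was at 1219132 and 734432 counts (ratio of double mutant to control 0.599, after scaling to the library totals), Car6 at 1023251 and 967707 (0.94), Pip at 487810 and 753239 (1.53) and Oit1 at 7796 and 4426 (0.564). Of the members, 2310057J18Rik alone was past 2-fold, at 8868 and 79207 counts (8.88-fold higher in the double mutant), where 4.15% of 12110 genes were 2-fold higher and 8.36% 2-fold lower. Mucl1 had 197 and 217 counts, and Smr2 1 and 0. Scaled without the members, Oit1 also passed 2-fold lower (log2 ratio -1.01). Both animals were labelled female and differed in age as well as in genotype. Drop-seq whole glands of control females alone differed in 2310057J18Rik by more than the bulk libraries did. Its genotype log2 fold change was 0.31 ± 0.94 in Drop-seq and -1.71 ± 0.33 in CITE-seq whole-gland sums (SE).

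Genes that serve the same secretion were counted from 4 lists. Some of them, among them Aqp5, Slc12a2, Kcnn4, Rab3d, Derl3 and Lpo, were also markers that named the acinar-like clusters. Their levels in acinar-like cells are thus not independent of how those cells were chosen. For genotype in acinar-like cells, 0 of 11 tested genes of fluid secretion rose and 1 fell, the water channel Aqp5 (log2 fold change -0.81 ± 0.16, edgeR adjusted p = 0.0063), and none of 12 exocytosis genes or 26 genes of translocation and folding in the endoplasmic reticulum passed, against 1.79% of all genes. Of 17 other secreted salivary proteins 1 rose, Wfdc18 (4.63 ± 0.50, edgeR adjusted p = 4.99e-07), a marker of both luminal Dcpp1+- and luminal Clu+-like clusters, and 1 fell, Klk1b22, a kallikrein of granular ducts (-1.81 ± 0.43, edgeR adjusted p = 0.0228). In whole glands, where 22% of all genes passed and 7.56% were lower, 1 of 16 fluid secretion genes rose and 4 fell, among them the chloride uptake transporter Slc12a2 (-0.84 ± 0.20, edgeR adjusted p = 0.00563), 2 of 15 exocytosis genes fell (Rab27b and Nucb2), 2 of 26 endoplasmic reticulum genes fell (Spcs1 and Spcs2), and of 25 secreted proteins 3 rose (Lyz1, Odam and Ltf) and 4 fell. In CITE-seq whole-gland sums, where 13.7% of all genes passed and 4.47% were lower, 8 of 16 fluid secretion genes fell. Of 14 exocytosis genes 2 fell (Nucb2 and Rab27b), 3 of 26 endoplasmic reticulum genes rose (Sec61g, Creld2 and Pdia4), and of 22 secreted proteins 4 rose and 11 fell. In CITE-seq acinar-like cells, where 9.62% of all genes passed and 2.6% were lower, 2 of 11 fluid secretion genes fell, Slc12a2 (-1.45 ± 0.20, edgeR adjusted p = 0.00252) and the sodium pump subunit gene Atp1b1 (-1.34 ± 0.27, edgeR adjusted p = 0.0145). None of 12 exocytosis genes passed, 1 of 25 endoplasmic reticulum genes rose (Manf) and 1 fell (Herpud1), and of 14 secreted proteins 4 rose, among them Wfdc18 and Odam, and 6 fell, among them Klk1b9.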

How the data were processed

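Glands were grouped by the genotype, stage and sex of their labels. The authors deposited UMI count tables per cell barcode, made with Drop-seq tools and STAR on mm10 with GENCODE vM7 plus Cre and EYFP, barcodes being chosen at the knee, and whole-number bulk counts from featureCounts 1.6.0. The members and gene lists were chosen with earlier results of these data known. Barcodes with at least 100 genes (at most 2500 in CITE-seq) and at most 15% mitochondrial UMIs were retained. Cells were clustered without the members (30 components, 20 neighbours, Leiden resolution 1, leidenalg 0.10.2), and a cluster was named from at least 3 markers that were 2-fold higher in it and found in 10% of its cells. Called doublets (140 of 23346 Drop-seq and 15 of 2535 CITE-seq cells) were kept, and left out in an alternative.

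Sums of UMIs over all retained cells of a gland, or over its acinar-like cells (at least 10), were tested with edgeR 4.0.16 (quasi-likelihood, TMM, filterByExpr) in R 4.3.3, with Benjamini-Hochberg adjustment over all genes and a threshold of 0.05. The genotype fit had sex and stage as covariates, the stage contrasts groups of genotype and stage with sex, and the sex contrasts groups of genotype and sex with stage. Code was tested on simulated data. Alternatives were DESeq2 1.42.0, no filter, scaling without the members, the replicate number or the batch as a term, thinning to equal UMIs (650301 per gland, 99265 per acinar-like sum), resolution 0.7 and leaving out glands. Replicates are separate glands by label, and p-values cover the spread between them, which in CITE-seq may be that of mixed libraries. Depth was 650301 to 6994504 UMIs per Drop-seq gland and 34515744 and 34729551 counts in the bulk libraries. The antibody tables were not used. All 8 members were named in every comparison, the 3 genes most correlated with each over acinar-like sums (mean of at least 20 CPM, log2 of CPM plus 1), up to 3 genes per list and comparison by smallest adjusted p, and Bmpr1a, Ctnnb1 and Cre for the labels.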

Additional observations from a re-analysis of the deposited data

Results flagged for a closer look

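In 14 of 62 groups of 6 or 7 glands the highest gland stood apart from the others by Dixon's 95% limit. Chance alone passes this limit in about 1 group in 20 only for normal values of 1 population. The groups here mix the sexes, and whole-gland and acinar-like values come from the same glands. The 14 groups therefore cannot be judged against that rate. All values are UMIs per 10000 UMIs, beside the next gland of the group.

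Smr2 stood apart most often. In whole glands it was at 0.813 in control P40 replicate 3 (next 0.060), 0.606 in control P90 replicate 5 (next 0.119) and 0.0553 in double-mutant P40 replicate 3 (next 0). In acinar-like cells it was at 0.7103 in control P40 replicate 3 (next 0.113) and 0.0850 in double-mutant P40 replicate 3 (next 0). 2310057J18Rik was at 160 in control P90 replicate 5 (next 50.3) and 129 in double-mutant P40 replicate 3 (next 29.4) in whole glands, and at 181 in acinar-like cells of the latter (next 62.7). These 3 glands are labelled male and share their groups with females.

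Mucl1 was highest in double-mutant P90 replicate 4, at 30.02 in the whole gland (next 10.9) and 68.1 in acinar-like cells (next 25.4). That gland was 1 of 3 from batch 9, whose control glands were at 56.5 and 40.3 in acinar-like cells. Oit1 was at 1.499 in the whole gland of double-mutant P90 replicate 7 (next 0.838) and at 3.32 in acinar-like cells of double-mutant P90 replicate 5 (next 1.87), the gland whose sex genes went against its label. Car6 was at 716 in the whole gland of control P40 replicate 5 (next 531), and Pip at 612 in acinar-like cells of control P90 replicate 3 (next 386).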

How the results depend on the processing

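Of 476 member values under the alternatives listed at the start, 466 kept their direction and 417 their side of the threshold. With the batch as a term Mucl1 turned to -0.11 (stage in control, whole gland), -0.81 (stage in double-mutant, whole gland), -0.70 (stage in control, acinar-like cells), -1.36 (stage in double-mutant, acinar-like cells) and 0.22 (genotype, acinar-like cells), and Oit1 to 0.59 (stage in control, acinar-like cells). Without double-mutant P90 replicate 4 Mucl1 was -0.17 (stage in double-mutant, acinar-like cells), and leaving out 1 CITE-seq gland took it from -0.914 to 0.0832 (Mucl1: genotype, CITE-seq whole gland), the latter without control replicate 1. The causes were not tested.

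Same-numbered glands did not deviate together (r -0.355 to 0.51 over 37 pairs, median 0.0496), so the numbers do not pair the samples. The replicate block called 3998 genes (genotype, whole gland), 923 (genotype at P40, whole gland), 1854 (genotype at P90, whole gland), 5 (sex in control, whole gland), 144 (genotype, acinar-like cells), 31 (genotype at P40, acinar-like cells), 6 (stage in double-mutant, acinar-like cells), 22 (sex in control, acinar-like cells) and 634 (genotype, CITE-seq acinar-like cells). Under the block 2310057J18Rik was -0.46 (genotype, whole gland) and Pip -0.15 (genotype, acinar-like cells).

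Counts of genes called in whole glands moved by over 1.5 times as follows. For genotype, whole gland (2308), 300 passed with the batch and 1089 after thinning. For genotype at P40, whole gland (155), 640 passed with DESeq2, 1313 without a filter, 10 with the batch and 43 after thinning. For genotype at P90, whole gland (922), 1462, 1809, 117 and 538 passed in that order, and 368 without the libraries whose sex genes went against the label. For genotype by stage, whole gland (1), 9 passed with DESeq2, 189 without a filter and 0 under scaling without the members, the batch, thinning or without those libraries, and 3 without double-mutant P90 replicate 4. For stage in control, whole gland (575), 943 passed with DESeq2, 1523 without a filter, 0 with the batch, 57 after thinning and 879 without double-mutant P90 replicate 4. For stage in double-mutant, whole gland (0), 27, 627 and, with the batch, 4 passed. For sex in control, whole gland (64), 101 passed with DESeq2, 326 without a filter, 18 with the batch and 28 after thinning. For sex in double-mutant, whole gland (0), 6 and 169 passed, and 7 without the libraries against the label. For genotype by sex, whole gland (0), 1 and 57 passed. For genotype, CITE-seq whole gland (1379), 610 and 2356 passed.

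In acinar-like cells, for genotype, acinar-like cells (68), 227 passed with DESeq2, 275 without a filter, 32 with the batch and 34 after thinning. For genotype at P40, acinar-like cells (16), 56, 86 and, after thinning, 7 passed. For genotype at P90, acinar-like cells (94), 226, 357, 23 and 35 passed. For stage in control, acinar-like cells (362), 771, 972, 2 and 4 passed. For stage in double-mutant, acinar-like cells (2), 12 and 60 passed, 0 under scaling without the members, thinning or without double-mutant P90 replicate 4, and 1 without the libraries against the label. For sex in control, acinar-like cells (70), 133, 190 and, after thinning, 9 passed. For sex in double-mutant, acinar-like cells (0), 1 and 31 passed, 2 with the batch and 8 without the libraries against the label. For genotype, CITE-seq acinar-like cells (393), 95 passed with DESeq2.

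Leaving out 1 gland gave 1663 to 3331 genes (genotype, whole gland), 385 to 1854 (genotype at P90, whole gland), 79 to 879 (stage in control, whole gland), 44 to 103 (sex in control, whole gland), 332 to 402 (stage in control, acinar-like cells), 57 to 76 (sex in control, acinar-like cells), 380 to 1050 (genotype, CITE-seq whole gland) and 52 to 574 (genotype, CITE-seq acinar-like cells). 2310057J18Rik ran from -0.30 to 0.63 (genotype, whole gland), and was -0.02 without control P90 replicate 6. In CITE-seq the lone gland of an arm is then assumed to vary like the others.

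The make-up of acinar output moved with the subtraction of the non-epithelial level: Car6 in control cells went from 12.4% to 13.98% of the 8 (10.8% as a mean over cells), and the 8 together from 59.7% to 32.1% of UMIs in control and from 52.4% to 41.8% in double-mutant cells. Scaled without the members, the log2 ratios of the bulk libraries were -0.92 for Prol1, -0.31 for Spt1, -0.27 for Car6, 0.43 for Pip, -1.01 for Oit1 and 2.97 for 2310057J18Rik. Depth limits Smr2 (827 UMIs) and Oit1 (8334 UMIs) most.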

Other observations

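Over the acinar-like sums of 26 glands, members were described by the genes most like them among 1759 searched. The values are Pearson correlations of log2 CPM over glands that share libraries' depth, genotype and free RNA, and are given without a test. Prol1 was closest to Lrrc26 (0.87), Rpl4 (0.84) and Mrpl18 (0.81), and Car6 to Ift20 (0.84), Mrpl18 (0.82) and Srpr (0.80). Spt1 was closest to Use1 (0.70), Mien1 (0.66) and Mob4 (0.63), and Pip to Mrpl18 (0.69), Mrps24 (0.68) and Emc4 (0.68). Oit1 was closest to Slc35b2 (0.78), Canx (0.76) and Surf4 (0.74). Mucl1 was closest to Scgb2b6 (0.94), Gm37338 (0.94) and Gm8730 (0.93). 2310057J18Rik was closest to Wfdc12 (0.83), Arpc1b (0.67) and A730032A03Rik (0.65), and Smr2 to Klk1b8 (0.63), Klk1b16 (0.62) and Bglap3 (0.62). Among the members Prol1 and Car6 were closest (0.87), whereas Pip and Oit1 ran in opposite directions (-0.52).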
